A study of Homo sapiens with 8 samples.

Results

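Bile acid genes were examined in HepG2 cells whose NAT10 was knocked down. The 10 members were listed genes for bile acid synthesis (CYP7A1, CYP8B1, AMACR), conjugation (BAAT), export (ABCC2, ABCC3, SLC51A, SLC51B) and feedback (NR0B2, FGF19). The list was chosen with earlier results of these data known. All 10 had a row among the 86369 gene identifiers of the count table. HepG2 is an established human hepatocellular carcinoma line. Its cells received by lipofection either an siRNA against NAT10, which encodes an RNA cytidine acetyltransferase (siNAT10, 4 libraries), or a negative control siRNA (siControl, 4 libraries), and RNA was collected 2 days later. Replicates 1 and 2 of both groups belonged to batch 1 and replicates 3 and 4 to batch 2. Whether siNAT10 was a single siRNA or a pool is not given in the sources used here, and nothing states that the libraries came from separate cultures, so that p-values measure only the spread between these libraries.

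Hepatocytes make bile acids from cholesterol. CYP7A1 starts the classic route, CYP8B1 directs its intermediates towards cholic acid, peroxisomal enzymes such as AMACR help to shorten the side chain, and BAAT joins the product to glycine or taurine. ABCC2 exports conjugated compounds into bile, while ABCC3 and the paired subunits SLC51A and SLC51B export towards the blood. Bile acids restrain their own synthesis through the nuclear receptor FXR (encoded by NR1H4), which induces the repressor SHP (NR0B2) and the hormone FGF19 and also SLC51A and SLC51B.

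Promoter sequences are shown for the pair SLC51A and SLC51B, since the protein products form one transporter and the pair was fitted in opposite directions. RefSeq promoters (GRCh38.p14) were used for 5 of the 10 members: ABCC2, AMACR, BAAT (2 start sites), SLC51A and SLC51B. Each covers 250 bases before and 50 bases after a RefSeq start site. The search was for the inverted repeat AGGTCANTGACCT, the site type known for FXR with its partner RXR, with up to 2 mismatches outside the N. The repeat reads the same on both strands, and it was searched in windows of 300 bases. A match stood in 394 of 35116 promoters (1.12%). Among these 5 members it was found in SLC51B alone (2 mismatches), from 54 to 42 bases before the start. CYP7A1 was left out of the member search by choice, and no promoter was at hand for CYP8B1, ABCC3, NR0B2 and FGF19. Nothing is said here of a match in those genes. No match says only that these letters are not in this window. The sequences are those of SLC51A (chr3:196216284-196216583, plus strand) and SLC51B (chr15:65045137-65045436, plus strand), 5′ to 3′, with the match in capitals.
SLC51A: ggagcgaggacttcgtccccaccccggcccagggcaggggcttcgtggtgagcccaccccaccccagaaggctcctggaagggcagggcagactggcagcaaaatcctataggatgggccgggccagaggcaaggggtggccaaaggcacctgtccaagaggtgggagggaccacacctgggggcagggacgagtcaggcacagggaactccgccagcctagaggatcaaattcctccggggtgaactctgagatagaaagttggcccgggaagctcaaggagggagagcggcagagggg
SLC51B: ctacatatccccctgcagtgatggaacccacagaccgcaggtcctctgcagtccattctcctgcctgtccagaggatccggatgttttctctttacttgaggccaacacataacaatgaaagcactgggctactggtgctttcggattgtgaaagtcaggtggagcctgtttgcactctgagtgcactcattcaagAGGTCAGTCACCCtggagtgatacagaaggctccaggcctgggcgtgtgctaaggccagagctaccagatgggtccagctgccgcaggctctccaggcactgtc

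Libraries held 9731718 to 27977110 counts, and the siNAT10 libraries of batch 2 were the shallowest (12935636 and 9731718). NAT10 itself stood at 44.7, 39.2, 77.8 and 48.9 CPM in siControl replicates 1 to 4 and at 13.1, 12.2, 20.1 and 22.3 CPM in siNAT10 replicates 1 to 4 (CPM, counts scaled to a common library size after TMM normalization). The knockdown measured -1.66 on the log2 scale (edgeR adjusted p 2e-05). Across all 13840 tested genes, 315 (2.28%) were called (edgeR, Benjamini-Hochberg threshold 0.05). Of these 113 (0.816%) rose and 202 (1.46%) fell in siNAT10, or 138 and 149 when libraries were scaled by size alone, which moved the median of all genes to 0.037. Hepatocyte markers such as ALB, APOA1 and TF were abundant, but APOB had 7 counts in all, each in siControl replicate 3. SERPINA1 was also low, from 2.24 to 13.2 CPM in siControl and from 1.7 to 8.7 CPM in siNAT10. The 10 hepatocyte markers summed to between 9420 and 9900 CPM in siControl and to between 7600 and 8170 CPM in siNAT10, with no overlap. Of the 9 tested hepatocyte markers 6 were fitted lower and 3 higher. The lower sum was carried by ALB (4410 to 3420 CPM), TF (2090 to 1470 CPM, called) and AFP (1670 to 1370 CPM), while APOA1 stood at -0.01 and FGB at 0.37 on the log2 scale, neither called. The 7 cholangiocyte markers summed to between 1010 and 1160 CPM in siControl and between 973 and 1170 CPM in siNAT10. The 7 enterocyte markers summed to between 24.3 and 31.8 CPM and between 18.9 and 22.6 CPM, also with no overlap. SI and LCT stood at 0 in every library, and MTTP, which was called lower, carried most of the sum. The leukocyte list summed to between 417 and 569 CPM and between 339 and 398 CPM, again with no overlap. Nearly all of it was LYZ, which was called lower, with PTPRC and CD3E at 0 in every library. Fibroblast and endothelial lists each stayed under 2 CPM. The part of these differences in the results below was not tested, and in such bulk RNA fewer cells of a kind and less RNA per cell cannot be told apart.

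Of the 10 members, 8 passed the filter on low counts. CYP8B1 rose and SLC51A fell in siNAT10, so that 2 of 8 tested members were called against the 2.28% of all tested genes given above. As the list was chosen with earlier results known, these shares are given as a description. The other 6 tested members were not called (edgeR adjusted p from 0.18 to 0.99). The median log2 fold change of the 8 tested members was -0.047, beside -0.002 for all tested genes, and the median size of change was 0.281 against 0.157. In 2 members, CYP8B1 and SLC51B, every siNAT10 library lay above both siControl libraries of its batch, as in 6.76% of tested genes. In 2 others, SLC51A and NR0B2, every siNAT10 library lay below both, as in 7.9% of tested genes.

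**Figure D1:**
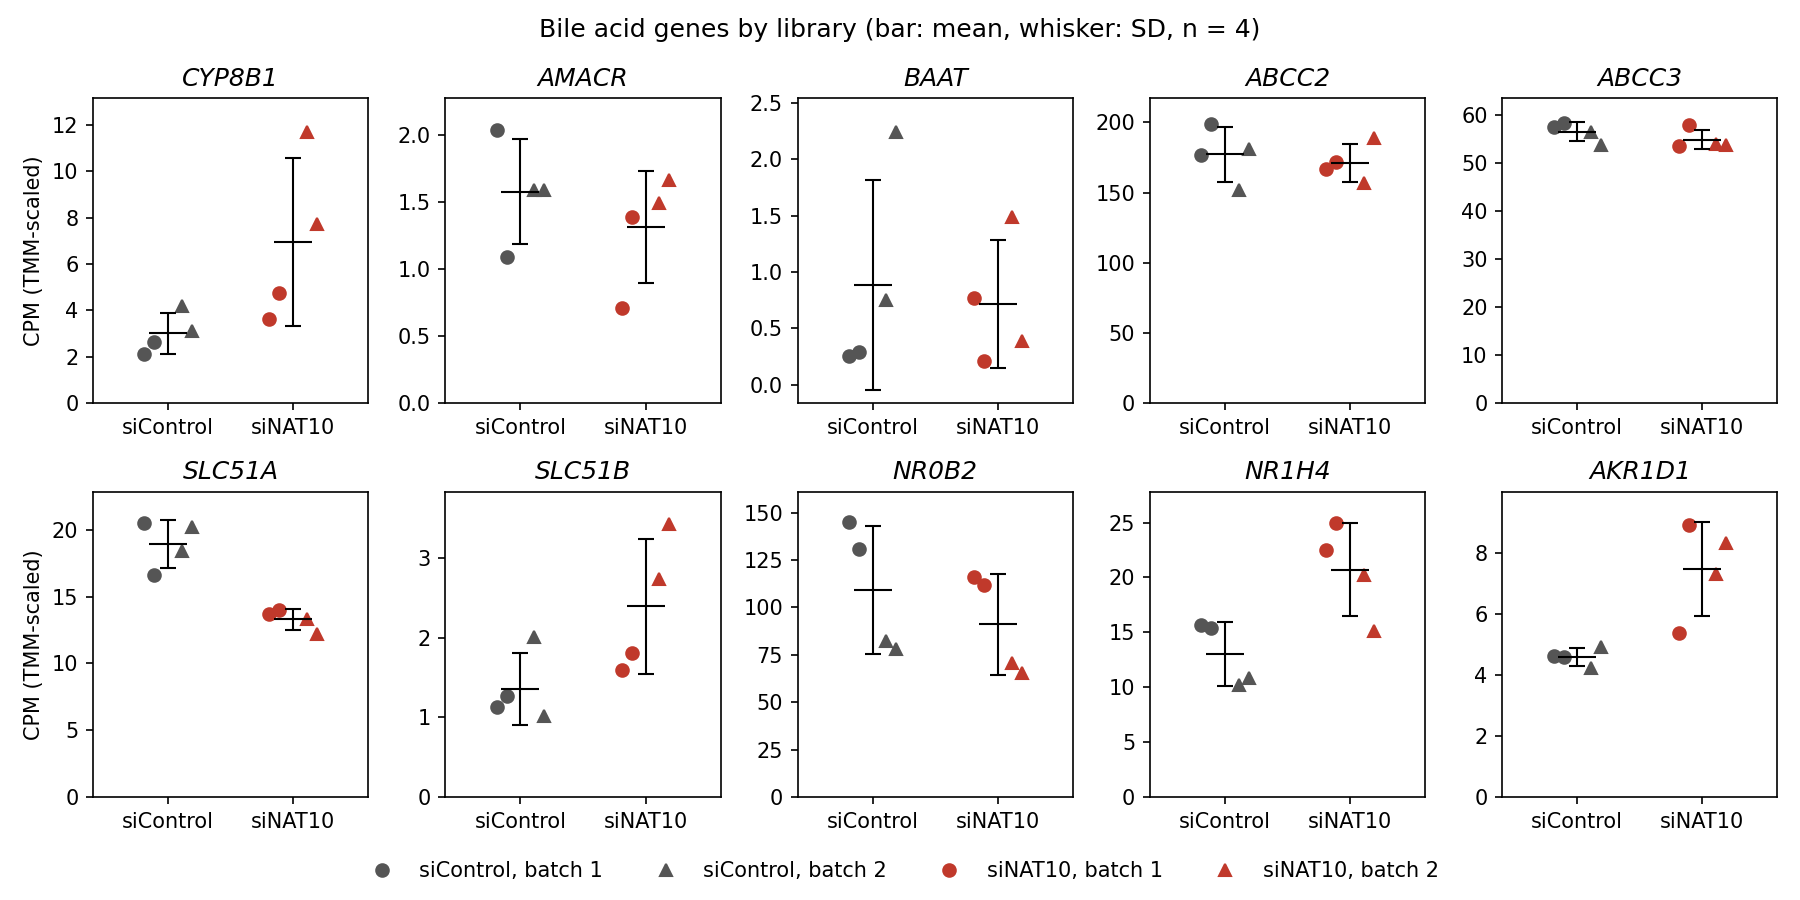
CPM of each library (vertical axis, linear) for the 8 tested members and for NR1H4 and AKR1D1, by siRNA group; circles are batch 1, triangles batch 2, bars the mean and whiskers the SD of 4 libraries. SLC51A and AKR1D1 are the genes here whose groups do not overlap at all, and CYP8B1, SLC51B, NR0B2 and NR1H4 separate within each batch.

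CYP8B1 (ENSG00000180432; GRCh38 chromosome 3, 42856005 to 42875898, minus strand) encodes the sterol hydroxylase that sets the ratio of cholic to chenodeoxycholic acid, and it had the largest change among the members. Its siControl values were 2.11, 2.65, 4.17 and 3.11 CPM (58, 46, 89 and 43 counts) in replicates 1 to 4. The siNAT10 values were 3.61, 4.76, 11.7 and 7.72 CPM (66, 137, 149 and 79 counts). The 2 siNAT10 libraries of batch 2 were the highest of all, and siControl replicate 3 lay above siNAT10 replicate 1, so the groups overlapped across batches but not within them. Mean CYP8B1 was 3.01 ± 0.876 CPM under siControl and 6.95 ± 3.6 CPM under siNAT10 (SD, n = 4). The fitted rise was 1.13 ± 0.22 (SE) on the log2 scale, or 2.19-fold (95% interval 0.68 to 1.59, edgeR adjusted p 0.011). It was 0.84 in batch 1 and 1.41 in batch 2, neither called alone, and the interaction of batch and siRNA had an unadjusted p of 0.2 in edgeR. The call was lost without siControl replicate 1 (edgeR adjusted p 0.051), siNAT10 replicate 2 (0.06) or siNAT10 replicate 3 (0.052), and without the batch term (0.34). ACKR2 and 3 other genes lie on the other strand over the last 500 bases of CYP8B1. Whether counting used the strand is not given, so reads of these genes cannot be told apart from its own.

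CYP7A1, the rate-limiting enzyme of the classic route (ENSG00000167910), had 2 counts in siControl replicate 3, 2 counts in siNAT10 replicate 3 and 0 in the other 6 libraries. It did not pass the filter, and an exact two-sided permutation test of CPM gave p = 1. A level of 3 counts corresponds to between 0.104 and 0.293 CPM in these libraries, so no difference was detectable at this depth. PEX5, a peroxisomal import receptor that cells in general use, was also listed at 0 in all 8 libraries, so a listed 0 need not mean that a transcript is absent.

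The racemase gene AMACR (ENSG00000242110; chromosome 5, 33986165 to 34008104, minus strand) was low, from 1.09 to 2.04 CPM in siControl and from 0.711 to 1.66 CPM in siNAT10. The groups overlapped, and the log2 fold change was -0.31 with a 95% interval from -1 to 0.39 (edgeR adjusted p 0.72). It was -0.02 without siControl replicate 1 and -0.1 without siNAT10 replicate 1. BAAT (ENSG00000136881; chromosome 9, 101354182 to 101385400, minus strand), the conjugating enzyme, had 4 to 31 counts per library. Its siControl values were 0.254, 0.288, 0.75 and 2.24 CPM and its siNAT10 values 0.766, 0.209, 1.49 and 0.391 CPM. The batch 2 libraries of each siRNA differed several fold from one another, and the log2 fold change of -0.03 had a 95% interval from -1.24 to 1.17 (edgeR adjusted p 0.99). For both genes the interval reached down to a halving of the level.

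The exporters ABCC2 and ABCC3 were among the well counted members and neither was called. ABCC2 (ENSG00000023839; chromosome 10, 99782640 to 99852594, plus strand), the canalicular pump for conjugates, stood at 177, 199, 152 and 181 CPM in siControl and at 167, 172, 157 and 189 CPM in siNAT10. In batch 1 both siNAT10 libraries lay below both siControl libraries and in batch 2 the groups overlapped, with a log2 fold change of -0.05 (95% interval -0.27 to 0.18, edgeR adjusted p 0.87). ABCC3 (ENSG00000108846; chromosome 17, 50634777 to 50692253, plus strand), a basolateral pump, stood at 57.5, 58.4, 56.4 and 53.8 CPM in siControl and at 53.6, 57.8, 54 and 53.8 CPM in siNAT10. Its 8 values lay within 5 CPM of each other, and its log2 fold change of -0.04 had a 95% interval from -0.24 to 0.15 (edgeR adjusted p 0.87).

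SLC51A (ENSG00000163959; chromosome 3, 196211487 to 196243178, plus strand) encodes the alpha subunit of the basolateral bile acid transporter. It stood at 20.5, 16.6, 18.4 and 20.2 CPM in siControl and at 13.7, 14, 13.3 and 12.2 CPM in siNAT10. All 4 siNAT10 libraries lay below all 4 siControl libraries, as in 436 of all 13840 tested genes, and the spread within each group was narrow. Mean SLC51A was 18.9 ± 1.8 CPM under siControl and 13.3 ± 0.788 CPM under siNAT10 (SD, n = 4), a fitted level of 70.6% of siControl. On the log2 scale this was -0.5 ± 0.12 (SE; 95% interval -0.76 to -0.24, edgeR adjusted p 0.04), with -0.42 and -0.59 in batches 1 and 2. The hepatocyte markers ALB, TF and TTR were also lower in all 4 siNAT10 libraries than in all 4 siControl libraries. So was MTTP, which was on the enterocyte list, where SI and LCT stood at 0. APOA1, FGB and HNF4A overlapped between groups. The part of these genes in the fall of SLC51A was not tested. The call lay close to the threshold: it was lost in each fit that left out 1 library other than siControl replicate 2, with edgeR adjusted p from 0.068 (siControl replicate 3 left out) to 0.16 (siControl replicate 1 left out), and when libraries were scaled by size alone (0.068), thinned to equal depth (0.067) or fitted without the batch term (0.28). PCYT1A lies on the other strand over its 3′ end.

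SLC51B (ENSG00000186198; chromosome 15, 65045387 to 65053397, plus strand) encodes the beta subunit of the same transporter and went the other way without being called. Its siControl values were 1.13, 1.27, 2.01 and 1.01 CPM (31, 22, 43 and 14 counts) and its siNAT10 values 1.59, 1.81, 2.74 and 3.42 CPM (29, 52, 35 and 35 counts). The siNAT10 libraries were the higher ones in each batch, while siControl replicate 3 lay above both siNAT10 libraries of batch 1. The fitted difference was 0.75 ± 0.29 (SE) on the log2 scale (95% interval 0.13 to 1.37, unadjusted p 0.021, edgeR adjusted p 0.21). RASL12 lies on the other strand over its 3′ end.

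After these values had been seen, the pair was compared within each library, which removes the scaling between libraries; as it was chosen for its difference, it is given as a description with no test. The log2 ratio of SLC51B to SLC51A counts was -4.16, -3.68, -3.17 and -4.27 in siControl and -3.09, -2.95, -2.26 and -1.82 in siNAT10. Every siNAT10 library had a higher ratio than every siControl library. The mean difference was 1.29 on the log2 scale, 0.9 in batch 1 and 1.68 in batch 2. The difference ran from 1.06 to 1.51 when any 1 library was left out.

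**Figure D2:**
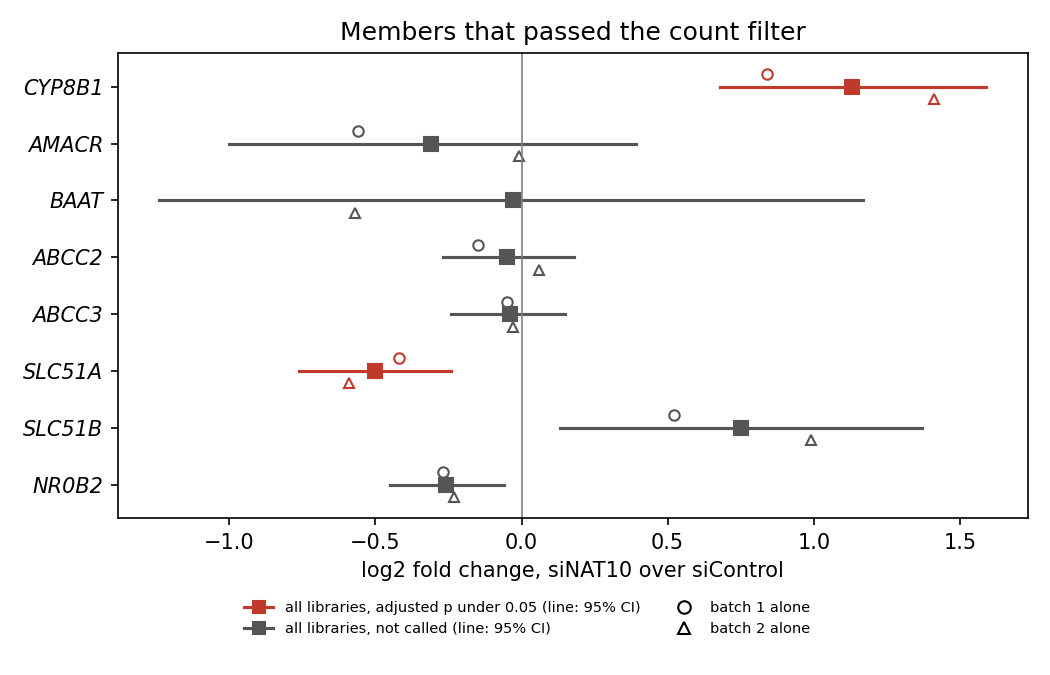
Fitted log2 fold change of siNAT10 over siControl (horizontal axis) for the 8 tested members, with squares and 95% intervals from all libraries and open symbols from each batch alone; red marks genes called over all libraries, not in a batch alone. CYP8B1 at 1.13 and SLC51A at -0.5 are called, ABCC2 and ABCC3 have narrow intervals around 0, BAAT has the widest interval, and BAAT has no batch 1 value because it did not pass the filter there.

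The feedback repressor NR0B2 (ENSG00000131910; chromosome 1, 26911489 to 26913975, minus strand) differed more between batches than between siRNAs. It stood at 145, 131, 82.4 and 77.9 CPM in siControl and at 116, 112, 70.7 and 65.4 CPM in siNAT10. Each siNAT10 library lay below both siControl libraries of its batch, but the siNAT10 libraries of batch 1 lay above the siControl libraries of batch 2. The fitted difference was -0.26 ± 0.09 (SE) on the log2 scale (95% interval -0.45 to -0.06, unadjusted p 0.015, edgeR adjusted p 0.18), with -0.27 and -0.23 in batches 1 and 2. NUDC lies on the other strand over its 3′ end. FGF19 (ENSG00000162344; chromosome 11, 69698238 to 69704022, minus strand), the hormone that signals through FGFR4 and KLB, had 1, 0, 2 and 5 counts in siControl and 2, 0, 1 and 0 in siNAT10. It did not pass the filter, and the exact two-sided permutation test of CPM gave p = 0.54.

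Of the 8 tested members 3 were called between batches, as were 3500 of all tested genes (25.3%) in edgeR. NR0B2 was lower in batch 2, with a batch log2 fold change of -0.76 (edgeR adjusted p 3.8e-05), and a mean over both siRNA groups of 126 CPM in batch 1 and 74.1 CPM in batch 2. CYP8B1 was higher in batch 2 by 0.95 on the log2 scale (edgeR adjusted p 0.0043), from a mean of 3.28 to 6.67 CPM, and BAAT by 1.74 (0.029), from 0.379 to 1.22 CPM. ABCC2, ABCC3 and SLC51A had batch log2 fold changes of -0.08, -0.06 and -0.03 (edgeR adjusted p from 0.64 to 0.88). A difference of the siRNA effect between batches (the interaction term) was called for 0 genes (0%) in edgeR, with 421 at an unadjusted p under 0.05 and 1 called in DESeq2. The unadjusted interaction p of the 8 tested members ran from 0.2 to 0.9.

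Of 62 other genes of the pathway, 44 passed the filter and 1 was called, the bile acid receptor gene NR1H4, beside the 2.28% of all tested genes. The median log2 fold change of the 44 was 0.073, beside -0.002 for all tested genes, with 29 fitted higher and 15 lower. NR1H4 (ENSG00000012504; chromosome 12, 100473708 to 100564414, plus strand), which encodes FXR, stood at 15.7, 15.4, 10.2 and 10.8 CPM in siControl and at 22.5, 25, 20.2 and 15.1 CPM in siNAT10. Each siNAT10 library lay above both siControl libraries of its batch, and across batches siNAT10 replicate 4 lay just below the siControl libraries of batch 1. The fitted rise was 0.68 ± 0.12 (SE) on the log2 scale, or 1.6-fold (95% interval 0.42 to 0.94, edgeR adjusted p 0.011), with 0.61 and 0.76 in batches 1 and 2. The call was lost without siNAT10 replicate 2 (0.057) and without the batch term (0.34). Between batches NR1H4 was lower in batch 2, by -0.5 on the log2 scale (edgeR adjusted p 0.0081).

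NR1H4 rose while NR0B2, a textbook target of the receptor it encodes, was fitted lower without being called. This pair, too, was compared within libraries after its values had been seen, as a description. The log2 ratio of NR0B2 to NR1H4 counts was 3.2, 3.08, 3.02 and 2.85 in siControl and 2.37, 2.16, 1.8 and 2.12 in siNAT10, so that every siNAT10 library had a lower ratio than every siControl library. The mean went from 3.04 ± 0.15 to 2.11 ± 0.23 (SD, n = 4), a difference of -0.93, with -0.88 in batch 1 and -0.97 in batch 2. The difference ran from -1.01 to -0.82 when any 1 library was left out.

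**Figure D3:**
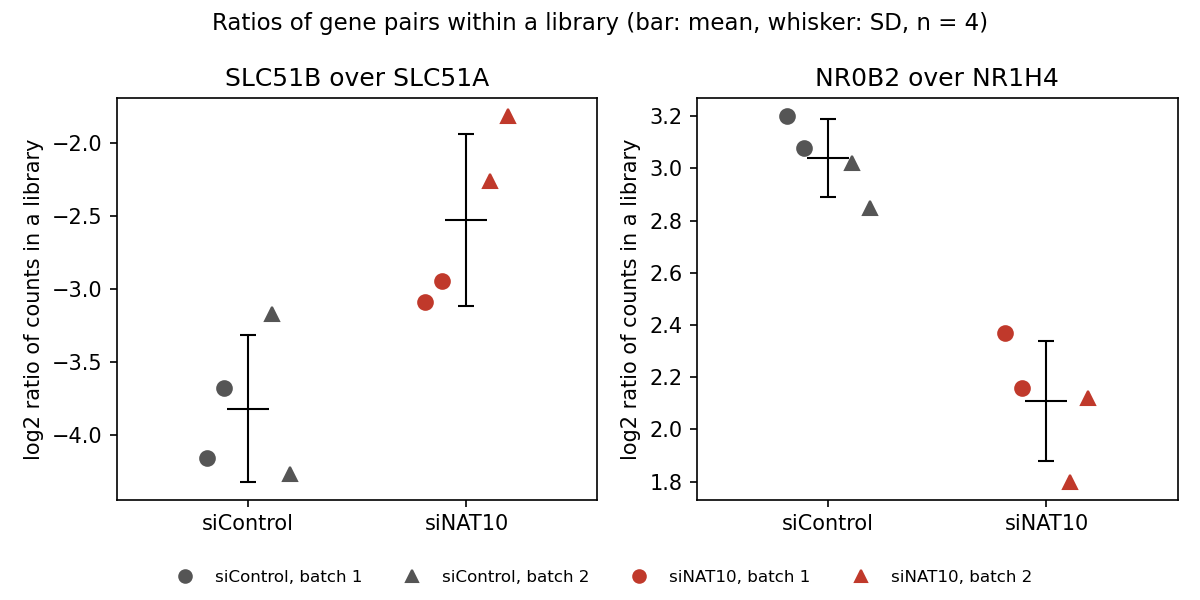
The log2 ratio of counts of 2 genes within a library (vertical axis) by siRNA group, SLC51B over SLC51A on the left and NR0B2 over NR1H4 on the right; circles are batch 1, triangles batch 2, bars the mean and whiskers the SD of 4 libraries. The siNAT10 libraries lie above the siControl libraries on the left and below them on the right, with no overlap.

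The counts by step that follow leave out the 10 members. In the classic route, 0 of these 5 other tested genes were called in edgeR, while the member CYP8B1 was. AKR1D1, a reductase of the sterol ring, was closest to the threshold. It stood at 4.62, 4.6, 4.22 and 4.91 CPM in siControl and at 5.36, 8.9, 7.29 and 8.31 CPM in siNAT10. All siNAT10 values lay above all siControl values, as in 312 of all 13840 tested genes. The fitted difference was 0.71 ± 0.18 (SE) on the log2 scale (95% interval 0.32 to 1.1, edgeR adjusted p 0.055). It passed under the replicate block (adjusted p 0.045), in DESeq2 (0.028), with no filter on low counts (0.014) and without siNAT10 replicate 1 (0.036). In the other 14 of 18 settings AKR1D1 was not called. Its edgeR adjusted p was 0.24 without siNAT10 replicate 2, 0.31 without the batch term, and 0.23 and 0.62 in batches 1 and 2 alone. The paralogs AKR1C1, AKR1C2 and AKR1C4 share sequence, so their counts are uncertain, and none was called. The alternative route had 1 tested gene of 5, CYP27A1, the mitochondrial sterol hydroxylase, at 126 ± 6.04 CPM in siControl and 134 ± 16.9 CPM in siNAT10 (edgeR adjusted p 0.72). CYP7B1 and CH25H of that route were listed at 0 in all libraries.

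Among 7 other tested genes of peroxisomal side chain shortening and conjugation 0 were called, and 2 had an unadjusted p under 0.05 in edgeR. SCP2, the thiolase and sterol carrier, had means of 29.6 ± 4.22 CPM under siControl and 35.8 ± 5.69 CPM under siNAT10, 0.28 apart on the log2 scale (edgeR adjusted p 0.23), and ACOX2, the branched chain oxidase, had -0.34 (0.31). Of the canalicular exporters other than ABCC2 0 of 6 tested were called, with ABCG8, a sterol export subunit, lowest in p at -0.46 on the log2 scale (edgeR adjusted p 0.35). ABCG8 was at -0.02 in batch 1 and -0.89 in batch 2, and at -0.23 without siControl replicate 3 or -0.29 without siNAT10 replicate 3. The bile salt export pump gene ABCB11 and the uptake carrier genes SLC10A1 and SLC10A2 were listed at 0 in all libraries. Of the genes listed under basolateral uptake and efflux other than the members, 4 were tested (SLCO2B1, ABCC4, EPHX1 and FABP6) and 0 were called. The uptake carrier SLCO2B1 had the lowest p of these 4, at 64.7 ± 7.89 CPM under siControl and 76.5 ± 9.93 CPM under siNAT10 (edgeR adjusted p 0.33).

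Of 17 tested receptors and regulators other than NR0B2 and FGF19, 16 were not called (edgeR adjusted p 0.19 or higher). PPARA, a fatty acid receptor, and MAFG, a repressor that FXR is known to induce, had an unadjusted p under 0.05. PPARA had means of 46.1 ± 5.56 and 57.4 ± 9.24 CPM (SD, n = 4, siControl first; edgeR adjusted p 0.19), and MAFG, whose 3′ end overlaps SIRT7, 111 ± 21.9 and 140 ± 22.8 CPM (0.24). The uncalled genes included the FXR partner RXRA at -0.02, the FGF19 receptor pair FGFR4 and KLB at -0.06 and -0.05, and HNF4A, an activator of CYP7A1 and CYP8B1, at 0.09 on the log2 scale. Of the genes for sulfation, glucuronidation and hydroxylation 0 of 4 tested were called, with the bile acid sulfotransferase SULT2A1 at -0.17 (edgeR adjusted p 0.56), or -0.03 without siControl replicate 3. Between batches 14 of the 44 tested pathway genes were called, 9 higher and 5 lower in batch 2, beside the 25.3% of all tested genes.

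**Figure D4:**
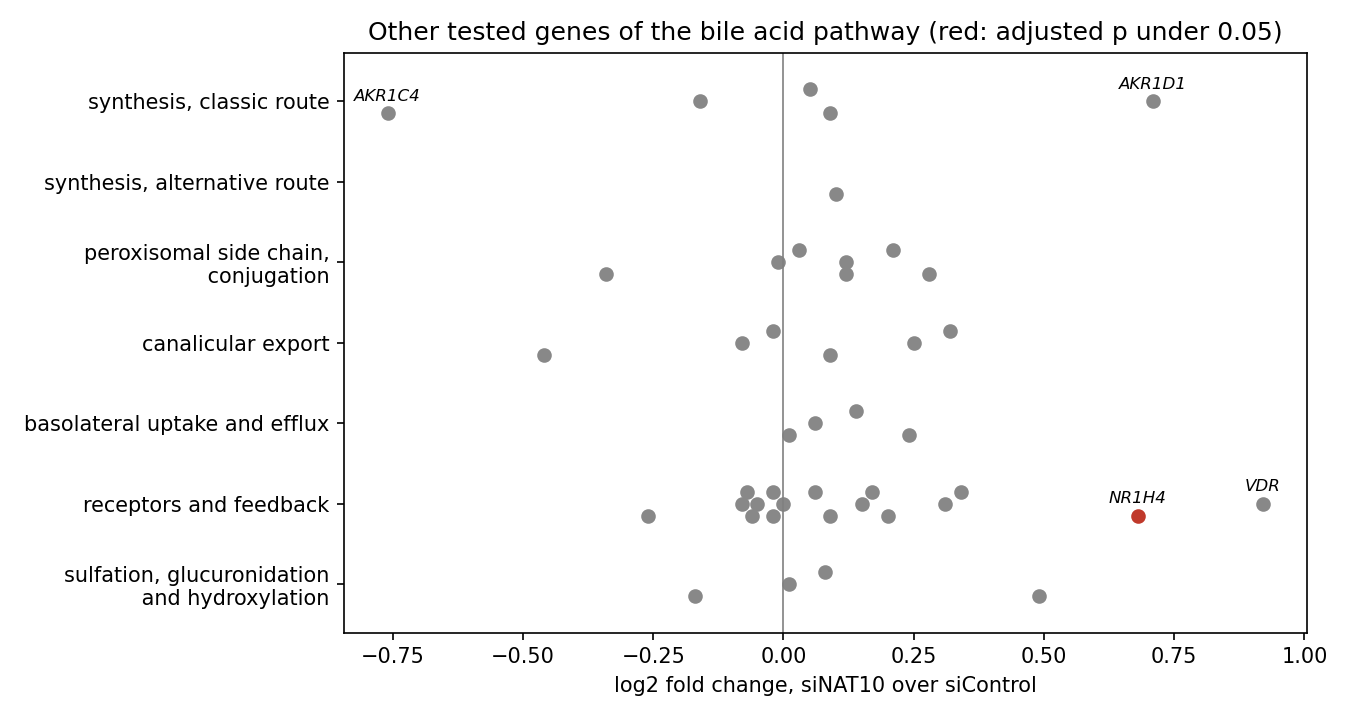
Fitted log2 fold change of siNAT10 over siControl (horizontal axis) for the 44 tested genes of the wider bile acid list, 1 point a gene, by step of the pathway (vertical axis); red marks an adjusted p under 0.05. NR1H4 at 0.68 is the 1 called gene, AKR1D1 at 0.71 misses the threshold, and VDR at 0.92 and AKR1C4 at -0.76 are low genes with wide errors.

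Genes whose log2 CPM over the 8 libraries was most like that of the called members were listed by Pearson correlation. For CYP8B1 these were SLC29A3, TMEM39A, CTNS, LRRC14 and MBTPS1 (r from 0.94 to 0.95), of which 0 were called between siNAT10 and siControl in edgeR (adjusted p from 0.15 to 0.54). For SLC51A they were CASKIN2, SRARP, JAML, ALB and NREP (r from 0.94 to 0.97). SRARP (-0.68, edgeR adjusted p 0.0043), JAML (-0.57, 0.017) and NREP (-0.61, 0.028) were called lower, and CASKIN2 (-0.22, 0.39) and ALB (-0.37, 0.072) were not. The 8 libraries share their batch and siRNA, so these correlations describe the libraries and carry no p.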

How the data were processed

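Polyadenylated RNA of 8 HepG2 libraries was read at its 3′ ends with a Lexogen QuantSeq kit, so counts do not scale with gene length. The labels name both the forward and the reverse kit. The authors deposited whole-number counts per Ensembl gene, made with Trim Galore 0.6.10, cutadapt 3.5, STAR 2.7.9a on GRCh38 and featureCounts, per the submitters' processing notes and the series text. The annotation release, strand setting and handling of multi-mapped or ambiguous reads are not given in the sources used here, so overlapping genes and near-identical copies can gain or lose reads. Symbols and coordinates came from GENCODE 44 (61458 of 86369 identifiers matched; all 72 listed bile acid genes did).

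Tests ran in R 4.3.3 with edgeR 4.0.16 (filterByExpr at a minimum count of 10, TMM, quasi-likelihood F test, batch and siRNA as terms, Benjamini-Hochberg adjustment over 13840 genes). Same-numbered libraries deviated together from their group means (correlations 0.39, 0.38, 0.45 and 0.36 across genes). They share a batch, and batch was not removed for these values, so the correlations cannot show a pairing by replicate number. The replicate number was also tried as a block. Replicates of a group and batch differed by more than counting noise (chi-square per degree of freedom from 16.7 to 27). Permutation tests of the members below the filter used CPM, and ratios used counts + 0.5. Named genes were NAT10, the 10 members, called genes and the lowest p of each group of the wider list, and the 5 genes with a mean of at least 8 CPM most correlated with each called member (log2 CPM, prior count 2). VDR, AKR1C4, ACOX2, PPARA, MAFG, PEX5 and other genes given at 0, as well as RXRA, FGFR4, KLB and HNF4A, were named beyond that rule after their values were seen. ABCC4, EPHX1 and FABP6 were named to show what the basolateral list held. The members and lists were chosen with earlier results of these data known. Intervals and floors cover counting error and the spread between libraries only.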

Additional observations from a re-analysis of the deposited data

Results flagged for a closer look

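In 52 groups of 4 values (1 gene in 1 siRNA group), 3 had a library whose gap to the nearest other took up most of the range, where chance alone gives about 2.6 (1 in 20). ABCC3 stood at 57.8 CPM in siNAT10 replicate 2, against 53.6 to 54 CPM in the other siNAT10 libraries. CYP27A1 stood at 109 CPM in siNAT10 replicate 4, against 141 to 145 CPM in the others. LRRC14 stood at 9.05 CPM in siControl replicate 1, against 10.7 to 11 CPM in the others. Neither ABCC3 nor CYP27A1 was called in any fit run.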

How the results depend on the processing

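The count of genes called was 15 without the batch term, 567 in DESeq2, 595 with no filter on low counts, 173 in batch 1 alone and 0 in batch 2 alone (edgeR, with 946 at an unadjusted p under 0.05), and from 75 to 286 with 1 library left out (main value 315). The lowest was without siNAT10 replicate 2, and siControl replicates 1 and 2 and siNAT10 replicates 1 and 3 also moved it by over 1.5 times (104, 132, 134 and 178). The members called (2) were 1 with library size alone or after thinning, 0 without the batch term, 0 in batch 1 alone and 0 in batch 2 alone (edgeR, with 3, 2 and 2 at an unadjusted p under 0.05), and from 0 to 2 with 1 library left out. They were 0 without siControl replicate 1, siNAT10 replicate 2 or siNAT10 replicate 3 (3, 4 and 4 at an unadjusted p under 0.05), and 1 without each other library except siControl replicate 2. DESeq2 called 2. Of the wider list (1 called), 2 were called under the replicate block, in DESeq2 and with no filter, 0 without the batch term and in either batch alone (edgeR, with 2, 4 and 4 at an unadjusted p under 0.05), and from 0 (without siNAT10 replicate 2, 9 unadjusted) to 2 (without siNAT10 replicate 1) with 1 library left out. The replicate block changed no call of a member (2 called; 454 of all genes); NAT10 was at -1.64 with it. The interaction was called for 1 gene in DESeq2, 15 with no filter and from 0 to 2 (without siControl replicate 4) with 1 library left out, and the batch term for 2531 to 3627 genes. Signs turned for BAAT (0.02 with the replicate block, -0.51 to 0.56 with 1 library left out) and ABCC2 (0.06 in batch 2 alone, -0.12 to 0.01 with 1 library left out), neither called. The cause of these changes was not tested. In all, 393 of 446 alternative values of named genes kept direction and call, and most of these genes were not called in the main fit. Among the called ones, SLC51A kept its call in 6 of 18 settings and CYP8B1 in 12. NR1H4 kept it in 14 of 18, SRARP in 15, JAML in 13 and NREP in 7. CYP7A1 and FGF19 had too few counts to test, and whether few transcripts or reads lost in counting account for that cannot be told apart.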
